A study of Mus musculus with 2 samples.

Results

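NF-kB is a family of dimeric transcription factors, and the 10 genes described here are its 5 subunits and 5 of its well-known feedback regulators and targets. They were listed by name, and the list was made with earlier results of these data known. The members are Nfkb1, Rel and Rela (subunits of the canonical pathway), Relb and Nfkb2 (subunits of the non-canonical pathway), Nfkbia, Tnfaip3, Birc3 and Bcl3 (regulators that NF-kB itself can induce) and Icam1 (an adhesion molecule and target). All 10 are among the 33696 genes of the 2 count matrices. They were read in barcodes with at least 200 detected genes, under 10% mitochondrial UMIs, at least 1 UMI of Cd8a or Cd8b1 and at least 1 UMI of Cd3d, Cd3e or Cd3g. A UMI is a molecular tag that counts 1 captured transcript. The rule kept 10699 of 12128 barcodes of the DHEA library and 8717 of 9495 barcodes of the CTRL library.

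The study profiled splenic CD8 T cells of WT mice by droplet single-cell RNA sequencing of transcript 3' ends. DHEA mice were injected under the skin each day with dehydroepiandrosterone (DHEA), an androgen precursor, for 21 days; the dose was 40 mg/kg and the carrier 20 µL of sesame oil. This treatment is used as a model of polycystic ovary syndrome. CTRL mice had the same volume of oil alone on that schedule. Each library holds magnetically isolated cells that the design text calls pooled. The labels state neither how many animals were pooled nor their age. With 1 library per group, no difference between the libraries has a replicate check and no test was run.

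In resting T cells, canonical dimers of Rela or Rel with p50, the product of Nfkb1, are held in the cytoplasm by IkB proteins. Antigen receptor, CD28 and tumour necrosis factor receptor signals activate the IKK kinases, IkB is degraded and the dimers enter the nucleus, where they induce genes that include their own inhibitors. In the non-canonical pathway, receptors such as 4-1BB and OX40 stabilise the kinase NIK, which leads to processing of the Nfkb2 product p100 to p52, the partner of Relb. Relb and Nfkb2 are themselves transcriptional targets of canonical dimers, so their transcript levels do not measure activity of either pathway.

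Because several members are induced by NF-kB itself, 5 promoter stretches are shown that hold matches to the DNA element that NF-kB binds. RefSeq promoter windows (build GRCm38.p6, 250 bases before to 50 after a transcription start) matched 8 of the 10 members, with 11 windows. Nfkb1 and Relb had no entry. The windows were searched on both strands for the 10-letter kB consensus, named only, and for the 9-letter motif GGANTTTCC, which overlaps it. The matches are in capitals, and each stretch has 60 bases on the strand of its gene.
Nfkbia, chr12:55492648-55492707, minus strand, -60 to -1: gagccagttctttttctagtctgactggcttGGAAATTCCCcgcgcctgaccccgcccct
Nfkb2, chr19:46304677-46304736, plus strand, -60 to -1: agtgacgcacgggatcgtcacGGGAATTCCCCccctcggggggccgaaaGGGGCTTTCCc
Rel, chr11:23771030-23771089, minus strand, -120 to -61: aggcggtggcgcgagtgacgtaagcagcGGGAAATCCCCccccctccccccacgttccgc
Tnfaip3, chr10:19015411-19015470, minus strand, -60 to -1: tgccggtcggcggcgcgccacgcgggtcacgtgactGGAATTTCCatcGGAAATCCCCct
Icam1, chr9:21015760-21015819, plus strand, -180 to -121: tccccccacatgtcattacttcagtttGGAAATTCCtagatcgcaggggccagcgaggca

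The kB consensus was present in windows of 5 members (Nfkbia, Nfkb2, Rel, Bcl3 and Tnfaip3) and in 4.51% of all 32851 windows. GGANTTTCC was present in windows of 4 members (Nfkbia, Nfkb2, Icam1 and Tnfaip3) and in 1.25% of all windows. Either motif was found in 8 of the 11 member windows, against 5.16% of all windows. Rela and Birc3 had no match to these letters in their windows. The motifs were chosen after the windows had been read, and a match does not show that a factor binds there.

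The libraries differed in ways that touch every value below. The selected cells held 50077687 UMIs in DHEA and 49239407 UMIs in CTRL, and the median cell had 4483 UMIs in DHEA and 5615 UMIs in CTRL. Cd4, which marks helper T cells, had 4 UMIs in DHEA and 3 in CTRL. Of 12 listed B cell genes 3 were measured, and 2 had no UMI in either library. Their list summed to 293 UMIs per 1000000 (CPM) in DHEA and 274 CPM in CTRL. The 14 listed myeloid genes summed to 82.2 CPM in DHEA and 70.0 CPM in CTRL, and the 4 of them that were measured had a median log2 ratio of 3.85, with 2 at least 1.5-fold higher in DHEA. S100a8, a gene of the myeloid list, had UMIs in only 0.0467% of DHEA and 0.0115% of CTRL cells. Memory genes summed to 3841 CPM in DHEA and 2269 CPM in CTRL. Transcripts that stay in the nucleus summed to 17995 CPM in DHEA and 22618 CPM in CTRL. Heat shock genes summed to 4950.3 CPM in DHEA and 3987 CPM in CTRL, and immediate early genes that cell handling can induce to 5589 CPM in DHEA and 5414 CPM in CTRL. The part of these differences in the results was not tested. The libraries shared 51 barcodes, 40 of them among the selected cells, and these were kept. Fewer cells carrying a transcript and less of it per cell cannot be told apart in the summed values.

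In all selected CD8 cells, every subunit gene was lower in the DHEA library, and the targets were split. Levels are given as CPM of the UMIs summed over the cells of a library, and differences as the log2 ratio of DHEA over CTRL with its exact 95% interval, which covers counting error only. None of the 10 members lay 1.5-fold apart, against 3.24% of the 10515 genes measured (at least 200 UMIs over both libraries), split into 1.81% higher by that fold and 1.44% lower. All 10 members passed that minimum. Their median log2 ratio was -0.17, beside -0.00 for all measured genes.

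Nfkb1 (ENSMUSG00000028163), which encodes the p105 precursor of p50, stood at 144 CPM in DHEA and 173 CPM in CTRL, a log2 ratio of -0.27 (-0.32 to -0.23). Rel (ENSMUSG00000020275), the lymphoid subunit c-Rel, stood at 69.8 CPM in DHEA and 86.8 CPM in CTRL (-0.32, -0.38 to -0.25). Rela (ENSMUSG00000024927), the broadly expressed subunit p65, stood at 44.2 CPM in DHEA and 48.6 CPM in CTRL (-0.14, -0.22 to -0.05). All 3 canonical subunits were lower in the DHEA library by more than counting error, Rela by the least. The ratio of Rela was 0.01 when each cell was thinned to 1000 UMIs.

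Relb (ENSMUSG00000002983) stood at 62.8 CPM in DHEA and 67.6 CPM in CTRL, a log2 ratio of -0.11 (-0.18 to -0.04). Nfkb2 (ENSMUSG00000025225) stood at 19.9 CPM in DHEA and 23.0 CPM in CTRL (-0.21, -0.33 to -0.08). Both non-canonical subunits were thus lower in the DHEA library too. The ratio of Relb was -0.03 without the Hivep1-led cluster described further on.

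Tnfaip3 (ENSMUSG00000019850), which encodes the ubiquitin-editing inhibitor A20, had the lowest ratio of the 10: 96.5 CPM in DHEA and 122 CPM in CTRL (-0.33, -0.39 to -0.28). Only 5.93% of measured genes had a lower ratio. Birc3 (ENSMUSG00000032000), which encodes the ubiquitin ligase cIAP2, stood at 61.7 CPM in DHEA and 74.4 CPM in CTRL (-0.27, -0.34 to -0.20). Nfkbia (ENSMUSG00000021025), which encodes the inhibitor IkB-alpha, stood at 438 CPM in DHEA and 420.3 CPM in CTRL (0.06, 0.03 to 0.09), so it did not share the lower level of Tnfaip3. Icam1 (ENSMUSG00000037405) stood at 60.03 CPM in DHEA and 54.0 CPM in CTRL (0.15, 0.08 to 0.23). Bcl3 (ENSMUSG00000053175), an atypical IkB protein that acts in the nucleus with p50 and p52, had the highest ratio of the 10: 17.5 CPM in DHEA and 13.99 CPM in CTRL (0.32, 0.18 to 0.47).

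Genes with a long genomic span were lower in the DHEA library as a class. The median ratio was 0.11 in the shortest of 5 span groups and -0.15 in the longest, by gene spans in GENCODE vM21. Nfkb1, with a span of 107 kb, is in the longest group, and its ratio less the median of that group was -0.12. Nfkbia, with 3.24 kb, is in the shortest group, and its ratio turned to -0.05. Tnfaip3 stood at -0.40, Rel at -0.26 and Bcl3 at 0.25 on the same scale. Rela stood at -0.21, Relb at -0.12, Nfkb2 at -0.28, Birc3 at -0.29 and Icam1 at 0.08 on it. This correction was chosen after the data were seen.

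**Figure D1:**
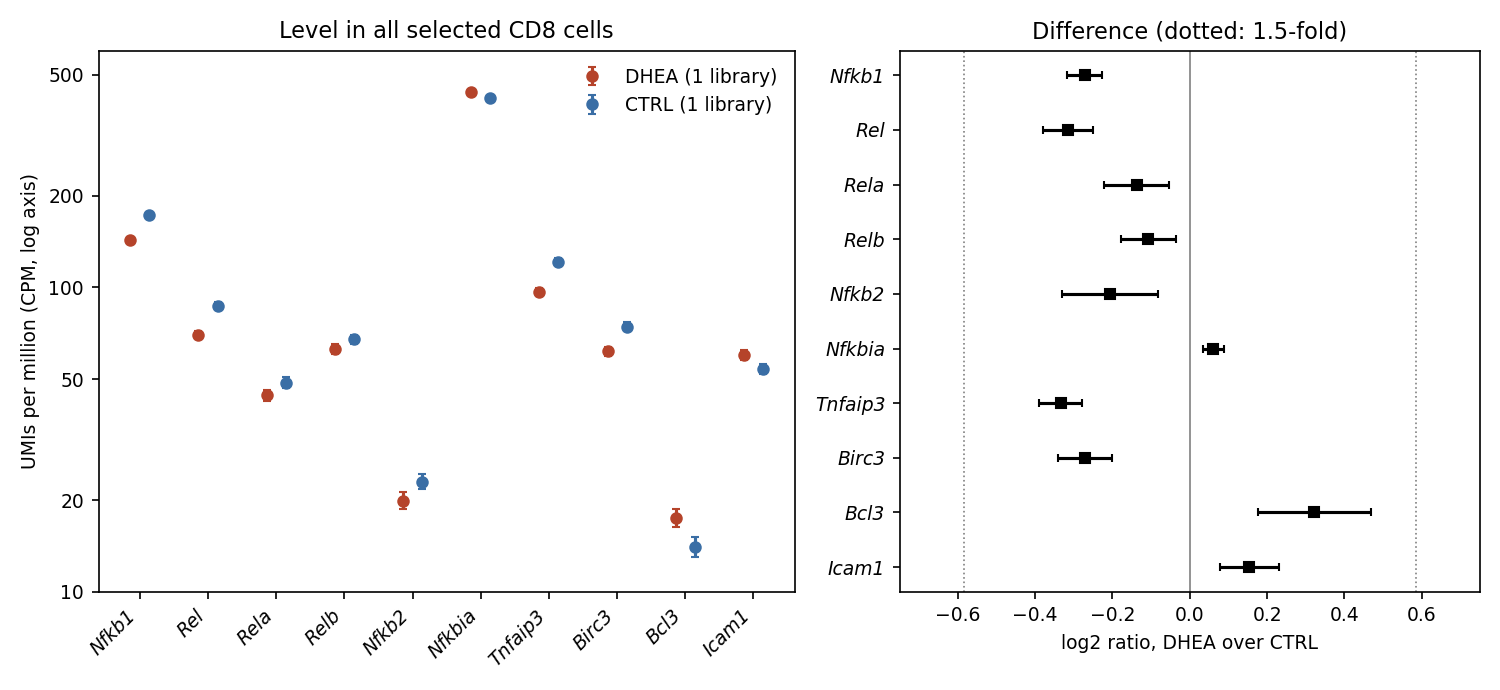
Left, level of each member in all selected CD8 cells in UMIs per 1000000 (CPM) on a log axis, DHEA left of CTRL, 1 point per library with its exact Poisson interval. Right, log2 ratio of DHEA over CTRL with its counting interval: 7 members lie left of 0, Nfkbia, Bcl3 and Icam1 right of it, and none passes the dotted 1.5-fold lines.

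The cells were grouped into 12 states from 15 clusters that were made without 117 genes of the NF-kB lists, so that no member helped to define a state. States with an -like name were named from marker lists, and the others carry their leading gene. Naive-like cells (4700 in DHEA and 4276 in CTRL) are clusters 0, 1 and 2, of which cluster 2 had none of the naive markers among its 10 leading genes. The largest number lay in cluster 0 in DHEA (2096 cells) and in clusters 2 and 1 in CTRL (1573 and 1468 cells). Memory-like cells (2281 in DHEA and 1033 in CTRL) are clusters 3 and 6. Cluster 6, led by the myeloid genes S100a9 and S100a8 and then by memory markers, held 897 of them in DHEA and 182 in CTRL. S100a8 had UMIs in only 0.132% of unthinned memory-like DHEA cells and 0% of CTRL ones, so its lead rests on few cells. The median cell of cluster 6 had 2409 UMIs in DHEA and 4225.5 UMIs in CTRL.

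Canonical subunits were lower in the DHEA library in 12 of 12 states. Their summed UMIs came to 258 CPM in DHEA and 309 CPM in CTRL over all selected cells, a log2 ratio of -0.26 (-0.30 to -0.23). The ratio was -0.22 in naive-like cells, -0.27 in memory-like and effector-like cells alike, -0.23 in Hivep1-led cells and -0.10 (-0.30 to 0.09) in innate-like cells. The interval left out 0 in 8 states and held it in innate-like, proliferating-like, Hdac9-led and Hspa1a-led cells. In innate-like, proliferating-like, Gm30948-led and Hdac9-led cells the sum turned higher in DHEA under at least 1 other setting, up to 0.20 in the 73 DHEA and 30 CTRL proliferating-like cells.

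Early-activated-like cells, led by the chemokine gene Xcl1, the activation gene Tnfrsf9 and Egr3, Egr1, Ccl4 and Egr2, had the lowest canonical ratio. The sum there was 391 CPM in DHEA (99 cells) and 596 CPM in CTRL (124 cells), a ratio of -0.61 (-0.85 to -0.37). Nfkb1 stood at 216 CPM in DHEA and 353 CPM in CTRL (-0.71, -1.04 to -0.39), and Rel at 106 CPM in DHEA and 189.8 CPM in CTRL (-0.84, -1.31 to -0.38). These were 2 of the 3 members with enough UMIs to be measured in this state, and both were at least 1.5-fold lower, against 3.01% of 897 genes. The other was Nfkbia, at 576 CPM in DHEA and 411 CPM in CTRL (0.49, 0.26 to 0.72). Rela, with 35 UMIs in DHEA and 44 UMIs in CTRL, stood at 68.8 CPM in DHEA and 53.2 CPM in CTRL (0.37, -0.31 to 1.04). So Nfkb1 and Rel lay on the other side of 0 from Nfkbia in these cells, and Rela did not. After thinning, the ratio was -0.19 for Rel, -1.40 for Nfkb1 and 0.84 for Nfkbia. Few cells carry these thinned values: Rel was then seen in 11 DHEA and 17 CTRL cells and Nfkb1 in 13 DHEA and 30 CTRL cells. Heat shock genes summed to 10159 CPM in these cells in DHEA and 8375 CPM in CTRL, and their part was not tested. In the CTRL library this state had the highest level of Nfkb1 (interval 314 to 396) and Rel (161 to 222) of all 12. Hivep1-led cells came next with 338 CPM of Nfkb1 (interval 313 to 364) and 158 CPM of Rel (141 to 176). The intervals of these neighbours overlapped for both genes.

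By gene, Nfkb1 and Tnfaip3 were lower in the DHEA library in 12 of 12 states each, though the ratio of Tnfaip3 was -0.00 in Hdac9-led cells, and Rel in 11. The exception for Rel was innate-like cells, at 79.7 CPM in DHEA and 75.5 CPM in CTRL (0.08, -0.30 to 0.46). Rela was lower in 5 of the 5 states where it was measured, but in 7 of 12 when all are counted. Birc3 was lower in 10 of 12. Icam1 was higher in 10 of 12 states and Bcl3 in 9, though Bcl3 was measured in 3 states only. The states are parts of the same 2 libraries and are not replicates.

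**Figure D2:**
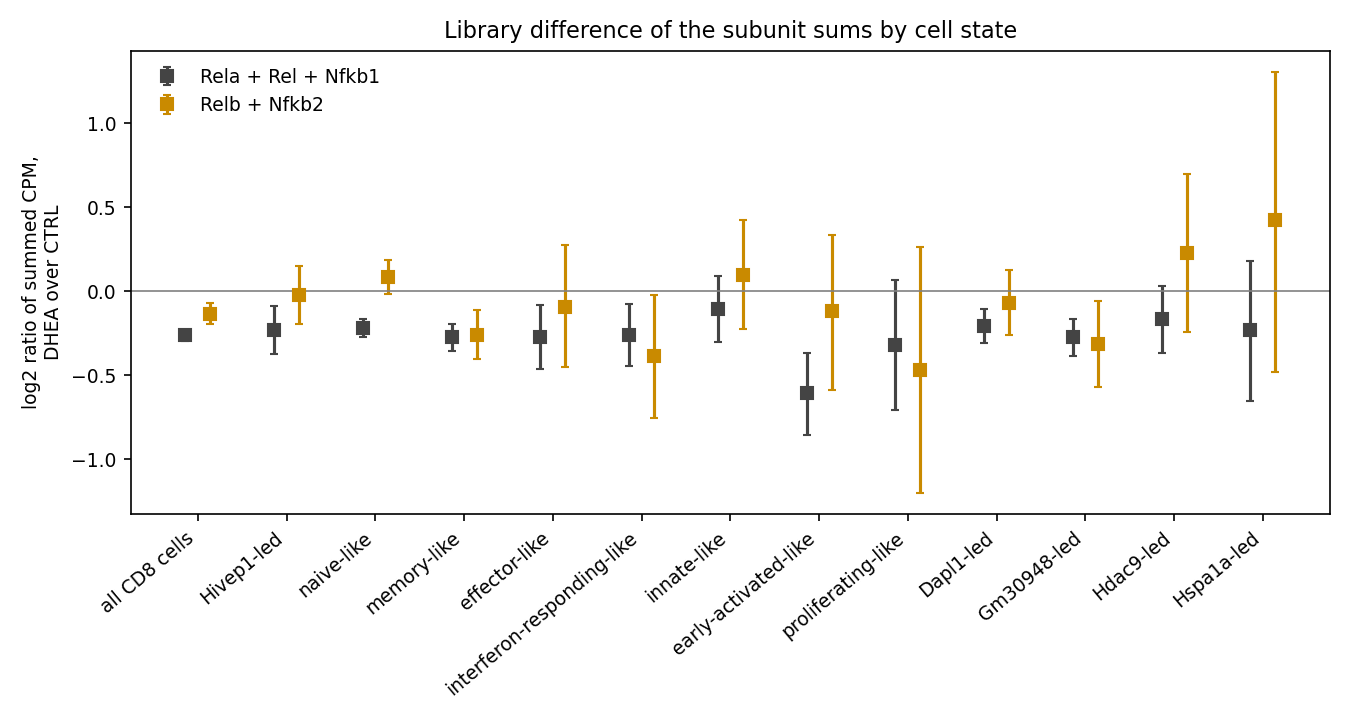
Log2 ratio of summed CPM, DHEA over CTRL, for canonical (Rela, Rel and Nfkb1) and non-canonical (Relb and Nfkb2) subunits, over all selected CD8 cells and in each state, with counting intervals. The canonical points lie below 0 in all 12 states, lowest at -0.61 in early-activated-like cells, while the non-canonical points lie on both sides of 0.

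Non-canonical subunits did not follow the canonical ones in every state. Their sum was 82.8 CPM in DHEA and 90.7 CPM in CTRL over all selected cells (-0.13, -0.19 to -0.07), and it was lower in DHEA in 8 of 12 states. Per 100 canonical UMIs there were 32.1 (31.0 to 33.3) non-canonical UMIs in DHEA and 29.4 (28.4 to 30.4) in CTRL, a log2 difference of 0.13 (0.06 to 0.20). This number was higher in DHEA in 9 of 12 states, and its interval left out 0 in naive-like cells alone. Nfkb1 is in the longest span group (median -0.15), Nfkb2 in group 2 (0.07) and Relb in group 3 (0.01). The part of gene span in the difference was not tested.

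In naive-like cells there were 32.6 non-canonical UMIs per 100 canonical ones in DHEA and 26.4 in CTRL, a difference of 0.30 (0.19 to 0.42). That difference lay between 0.17 and 0.33 under 12 other settings. It was not shared by the 3 naive-like clusters. Cluster 0 had 41.1 per 100 in DHEA and 29.9 in CTRL (0.46, 0.21 to 0.70), cluster 1 had 34.6 in DHEA and 26.3 in CTRL (0.40, 0.22 to 0.57), and cluster 2 had 24.3 in DHEA and 24.9 in CTRL (-0.03, -0.24 to 0.18). The median cell of cluster 0 had 1907 UMIs in DHEA and 3153 UMIs in CTRL. The part of depth in this difference was not tested.

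In memory-like cells the number was 33.2 in DHEA and 32.9 in CTRL (0.02, -0.15 to 0.18), where Relb was 58.8 CPM in DHEA and 68.9 CPM in CTRL (-0.23, -0.39 to -0.06) and the canonical sum was lower by a like ratio. Within this class the S100a9-led cluster 6 had 45.3 per 100 in DHEA and 32.6 in CTRL (0.48, 0.02 to 0.93), against 30.8 in DHEA and 32.9 in CTRL for cluster 3 (-0.10, -0.28 to 0.08). Among the 4 states where Nfkb2 was measured, Dapl1-led cells had its lowest ratio, with 12.9 CPM in DHEA and 20.3 CPM in CTRL (-0.65, -1.09 to -0.23). It was the 1 member of 9 measured there that was at least 1.5-fold lower, against 1.75% of 6237 genes.

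Between states the number ranged far more than between libraries. It was lowest in Gm30948-led cells in DHEA, with 19.4, and in Hdac9-led cells in CTRL, with 15.9. Their counterparts were 19.9 in CTRL and 20.9 in DHEA. Hivep1-led cells had 72.2 (63.8 to 81.7) in DHEA and 62.6 (56.9 to 68.8) in CTRL, and no interval of another state in the same library reached them.

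**Figure D3:**
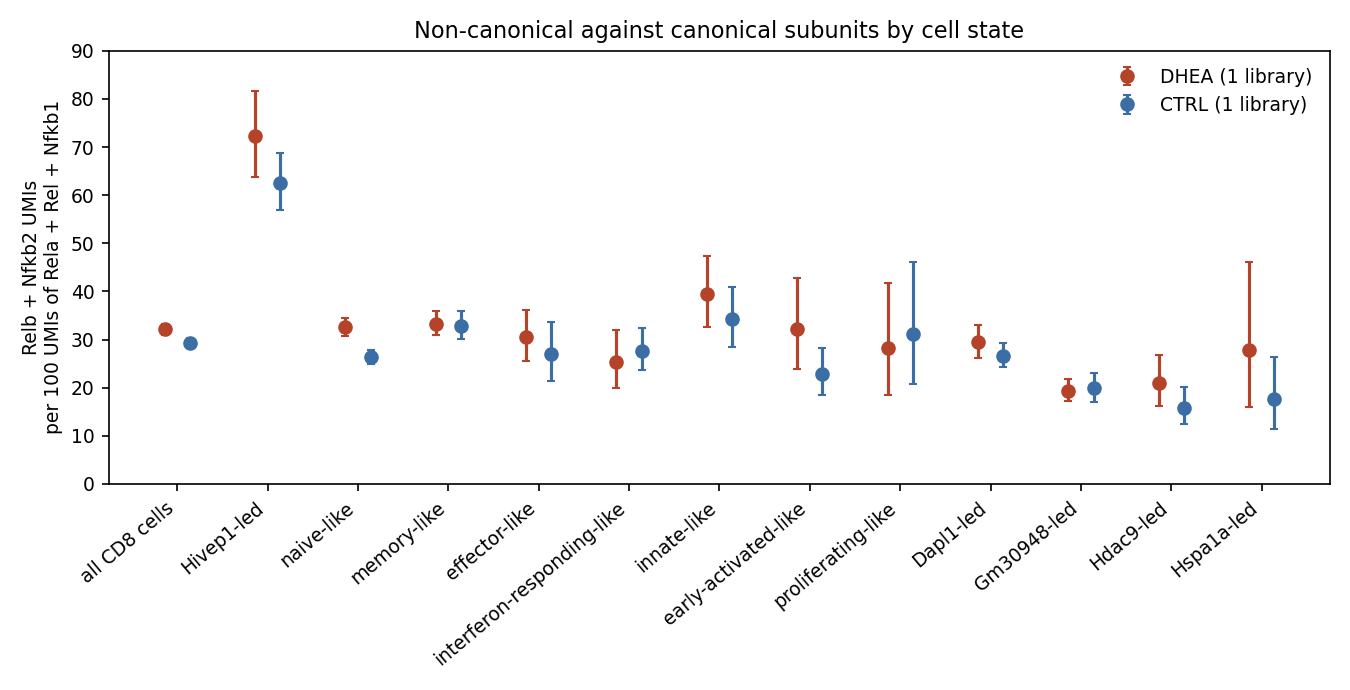
Number of non-canonical (Relb and Nfkb2) UMIs per 100 canonical (Rela, Rel and Nfkb1) UMIs over all selected CD8 cells and in each state, DHEA left of CTRL, with exact binomial intervals. Hivep1-led cells stand at 72.2 in DHEA and 62.6 in CTRL, above every other state, and the naive-like points stand apart at 32.6 in DHEA and 26.4 in CTRL.

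The state with the highest NF-kB transcripts was a cluster of 233 cells in DHEA and 344 cells in CTRL, 2.18% of selected cells in DHEA and 3.95% in CTRL. Its leading genes were Hivep1, Icam1, Relb, Bcl3, Nfkbia, Cd82, Nfkb2, Kdm2b, Rarg and Fas, and the 5 members among them had taken no part in the clustering. Hivep1 encodes a zinc finger protein that binds kB-like elements, and Fas a death receptor that is an NF-kB target. Each member's level in this cluster is a description, since the cells were grouped by genes that may move with the members.

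Bcl3 stood at 114 CPM in the cluster and 14.96 CPM in the other selected cells of the DHEA library, and at 83.0 CPM and 11.1 CPM in the CTRL library, or 7.60-fold in DHEA and 7.51-fold in CTRL. Nfkb2 was 5.54-fold higher in the cluster in DHEA and 4.37-fold in CTRL. Icam1 was 4.84-fold higher in DHEA and 5.07-fold in CTRL, and Relb 4.301-fold in DHEA and 4.47-fold in CTRL. Nfkbia reached 1479.9 CPM in the cluster in DHEA and 1375 CPM in CTRL, 3.60-fold and 3.62-fold above the other cells. The canonical subunits and the remaining regulators followed at some distance. Nfkb1 was 2.18-fold higher in DHEA and 2.03-fold in CTRL, Tnfaip3 1.86-fold and 1.73-fold, Birc3 1.80-fold and 1.88-fold, Rel 1.69-fold and 1.88-fold, and Rela 1.41-fold and 1.45-fold. The intervals of the 2 libraries overlapped for all 10 members.

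This cluster held 16.7% of all Bcl3 UMIs in DHEA and 24.2% in CTRL, and 3.57% of Rela UMIs in DHEA and 5.80% in CTRL, with 2.57% of all UMIs in DHEA and 4.09% in CTRL. Immediate early genes summed to 7262 CPM in it in DHEA and 6674 CPM in CTRL, above the levels over all selected cells, and the part of cell handling in it was not tested. Naive marker genes summed to 4800.0 CPM in DHEA and 4946 CPM in CTRL and effector marker genes to 125 CPM in DHEA and 107 CPM in CTRL. When all variable genes entered the clustering, an NF-kB-led cluster of 400 DHEA and 458 CTRL cells appeared. It took in 204 of the DHEA cells (87.6%) and 294 of the CTRL cells (85.5%), which were 51.0% and 64.2% of the larger cluster.

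Within the cluster none of the 10 members was 1.5-fold apart between libraries, against 1.39% of 2382 genes. Bcl3 was at 114 CPM in DHEA and 83.0 CPM in CTRL (0.45, 0.12 to 0.78), and Rel at 116 CPM in DHEA and 158 CPM in CTRL (-0.44, -0.73 to -0.16). Nfkbia differed by 0.11 (0.02 to 0.19). Birc3 differed by -0.31 (-0.62 to -0.01). These 4 were the members whose intervals left out 0 there. Most of the cluster (204 of 233 cells in DHEA and 294 of 344 in CTRL) also lay in the NF-kB-led cluster of all variable genes, and in the few cells left without it the ratio turned to -0.49 for Bcl3, -0.60 for Nfkbia and -0.83 for Icam1, and was -1.49 for Birc3 and -0.49 for Rel. With the cluster left out, the ratio over all selected cells was 0.11 for Nfkbia and 0.24 for Icam1.

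**Figure D4:**
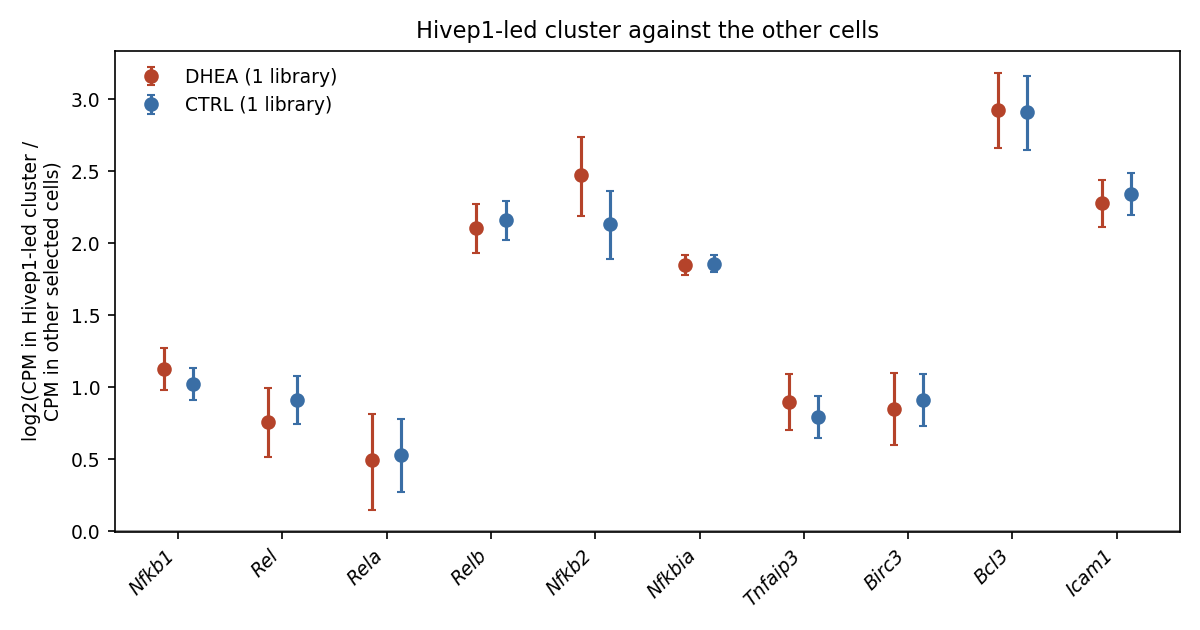
Log2 ratio of each member's CPM in the Hivep1-led cluster over its CPM in the other selected cells, for the DHEA (left of each pair) and CTRL libraries, with counting intervals. Bcl3 is highest at 7.60-fold in DHEA and 7.51-fold in CTRL and Rela lowest at 1.41-fold and 1.45-fold, and the intervals of the 2 libraries overlap for every member.

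Outside that cluster the members' order over states was flatter. For Nfkbia, early-activated-like cells came second in DHEA with 576 CPM and Hdac9-led cells in CTRL with 433 CPM, and Gm30948-led cells were lowest in both libraries (268 CPM in DHEA and 279 CPM in CTRL). Relb came second in early-activated-like cells in both (98.3 CPM in DHEA and 99.1 CPM in CTRL) followed by innate-like cells (83.7 CPM in DHEA and 76.7 CPM in CTRL). Icam1 came second in effector-like cells in DHEA (84.7 CPM) and in innate-like cells in CTRL (74.2 CPM). Proliferating-like cells, led by Pclaf and Stmn1, were lowest for Nfkb1 and Birc3 in both libraries. Tnfaip3 stood at 29.0 CPM in their DHEA cells, from 19 UMIs, and at 97.4 CPM in their CTRL cells, from 49 UMIs. Erythroid genes summed to 421 CPM in these cells in DHEA and 649.9 CPM in CTRL, and effector genes to 7984 CPM in DHEA and 553 CPM in CTRL, so this small class differed in content between the libraries.

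**Figure D5:**
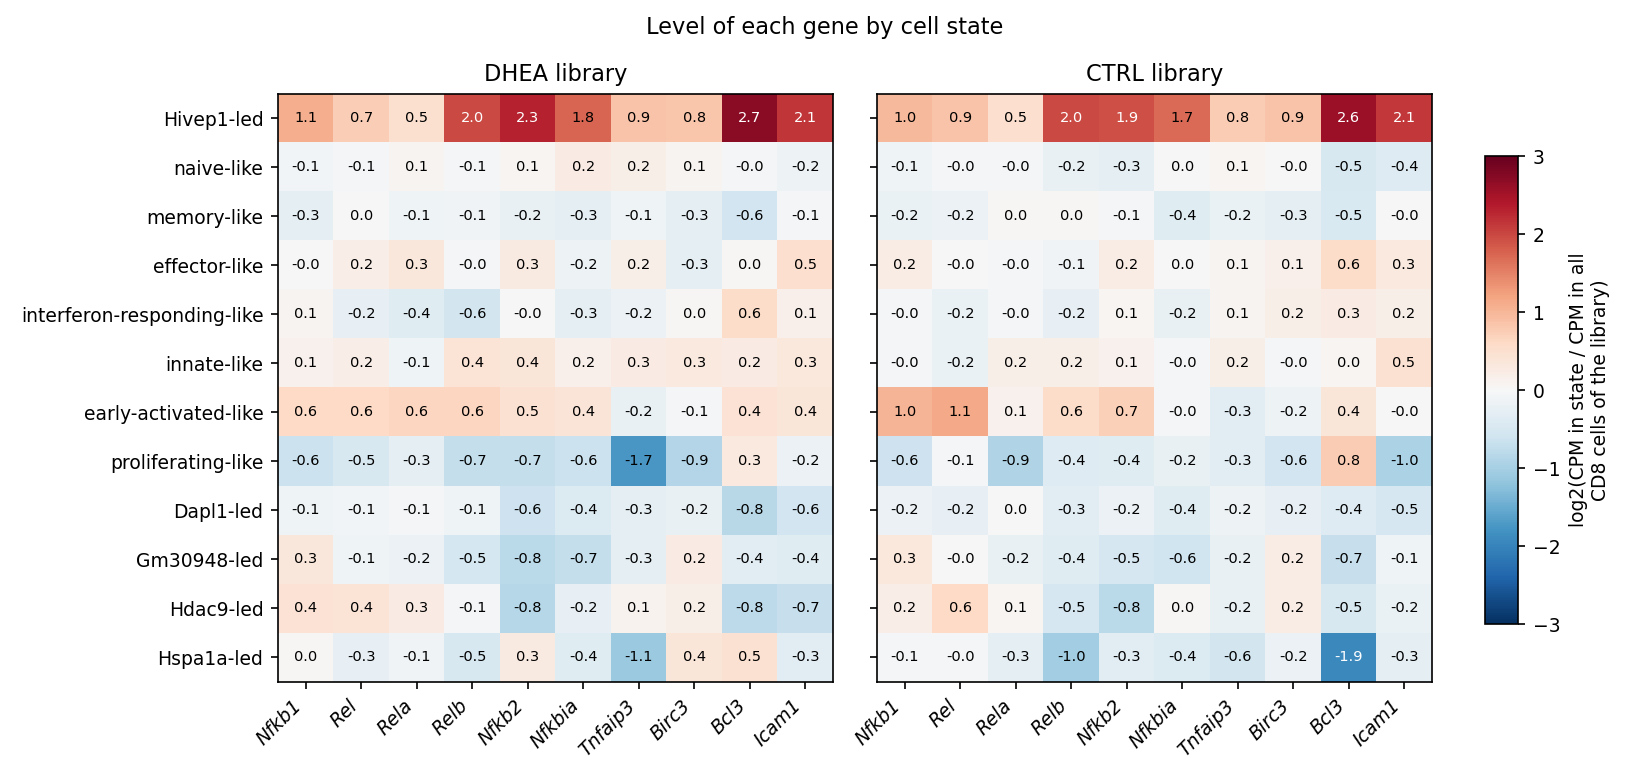
Log2 of each member's CPM in a state over its CPM in all selected CD8 cells of the same library, DHEA left and CTRL right, red for higher. The top row, Hivep1-led cells, is the highest in every column but Rela in DHEA and Nfkb1 and Rel in CTRL, where early-activated-like cells are higher.

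In naive-like cells the targets Bcl3, Icam1 and Nfkbia were higher in DHEA, while most canonical subunits and Tnfaip3 were lower. Bcl3 stood at 17.0 CPM in DHEA and 10.1 CPM in CTRL there, a ratio of 0.75 (0.50 to 1.01), and was the 1 member of 10 at least 1.5-fold higher, against 0.958% of 8875 genes. Icam1 stood at 53.7 CPM in DHEA and 41.3 CPM in CTRL (0.38, 0.24 to 0.51) and Nfkbia at 518 CPM in DHEA and 426 CPM in CTRL (0.28, 0.24 to 0.33). Rel was 66.8 CPM in DHEA and 84.1 CPM in CTRL (-0.33, -0.44 to -0.23), Nfkb1 136 CPM in DHEA and 158 CPM in CTRL (-0.22, -0.29 to -0.14), and Tnfaip3 108 CPM in DHEA and 127 CPM in CTRL (-0.23, -0.32 to -0.15). Hence 2 of the canonical subunits and A20 lay below 0 while Bcl3, Icam1 and Nfkbia lay above it. The other members, Rela, Relb and Nfkb2, had intervals that held 0, and Birc3 was lower (-0.18, -0.29 to -0.07). The ratio of Bcl3 was 0.46 after thinning, and that of Nfkbia 0.14 in the clustering of all variable genes. Over clusters 0, 1 and 2 the ratio of Bcl3 was 0.88, 0.97 and 0.23, and that of Nfkbia 0.23, 0.44 and -0.10. The ratio of Icam1 was 0.09, 0.63 and 0.14, that of Tnfaip3 -0.37, 0.02 and -0.48, and that of Nfkb1 -0.43, -0.02 and -0.31, so cluster 1 had the highest ratio of Icam1 and ratios near 0 for the other 2 genes. Heat shock genes summed to 4939 CPM in naive-like cells in DHEA and 3821 CPM in CTRL, and interferon-response genes to 362 CPM in DHEA and 287 CPM in CTRL. Their part in these values was not tested.

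In memory-like cells none of the 10 members was 1.5-fold apart, against 2.23% of 7489 genes. Nfkb1 stood at 118 CPM in DHEA and 150.5 CPM in CTRL (-0.36, -0.47 to -0.24), and Nfkbia at 361 CPM in DHEA and 327 CPM in CTRL (0.14, 0.07 to 0.22). Bcl3, with 11.7 CPM in DHEA and 10.1 CPM in CTRL (0.21, -0.20 to 0.63), was not higher beyond counting error. These values pool cluster 3, where the ratio was -0.03 for Bcl3 and 0.06 for Nfkbia, with the S100a9-led cluster 6, where it was 1.04 for Bcl3 and 0.33 for Nfkbia. In effector-like cells 5 members were measured and none was 1.5-fold apart, against 8.17% of 2633 genes. Nfkb1 was at 142 CPM in DHEA and 201 CPM in CTRL (-0.50, -0.76 to -0.25). This class differed in content too: effector genes summed to 5099 CPM in it in DHEA and 1975 CPM in CTRL, and naive genes to 2192 CPM in DHEA and 3100.2 CPM in CTRL. Their part in the values was not tested. Birc3, just under the minimum with 103 UMIs in DHEA and 92 UMIs in CTRL, had a ratio of -0.71 (-1.13 to -0.29) that turned to 0.19 when cells were thinned.

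The share of cells with a UMI of a member was compared after thinning each cell to 1000 UMIs, which left 10562 DHEA and 8709 CTRL cells. Nfkbia was seen in 30.1% (29.3 to 31.0) of DHEA and 29.4% (28.5 to 30.4) of CTRL cells, and in 65.3% of DHEA and 71.6% of CTRL cells before thinning. Nfkb1 was seen in 12.7% (12.1 to 13.3) of DHEA and 15.9% (15.2 to 16.7) of CTRL cells (42.3% and 54.6% before thinning). Tnfaip3 was seen in 8.58% (8.05 to 9.13) of DHEA and 10.99% (10.3 to 11.7) of CTRL cells (28.9% and 40.6% before). Bcl3 was seen in 1.77% (1.53 to 2.04) of DHEA and 1.25% (1.03 to 1.51) of CTRL cells (6.58% and 6.47% before). Icam1 was seen in 5.67% (5.24 to 6.13) of DHEA and 4.82% (4.38 to 5.29) of CTRL cells (20.0% and 20.9% before). So the thinned shares of Nfkb1, Tnfaip3 and Bcl3 lay apart in the direction of the CPM values, and the intervals of Icam1 and Nfkbia overlapped. Rel (6.46% in DHEA and 7.99% in CTRL) and Birc3 (6.01% and 7.23%) also lay apart in that direction. The intervals overlapped for Relb (5.56% and 6.23%) and Nfkb2 (2.09% and 2.40%). They overlapped too for Rela, which was seen in 4.65% of DHEA and 4.59% of CTRL cells. As a gauge of free RNA, the B cell gene Cd79a had UMIs in 0.0473% of thinned DHEA cells and 0.161% of thinned CTRL cells. The myeloid gene Lyz2 had them in 0.0663% and 0.0574%. S100a8 had them in 0.00947% and 0%, and the erythroid gene Hbb-bs in 0.0379% and 0%. Ighm, listed as a B cell gene, had UMIs in 23.2% of DHEA and 21.3% of CTRL cells. That is far from Cd79a, so Ighm was not taken as a gauge. The part of free RNA in the members' shares was not tested.

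Members were seen together in the same cells. Bcl3 was seen in 3.08% (2.51 to 3.74) of DHEA cells with a UMI of Nfkbia and in 1.21% (0.970 to 1.48) of those without, and in 2.38% (1.83 to 3.05) and 0.781% (0.576 to 1.03) of CTRL cells. Icam1 was seen in 18.7% (13.4 to 25.1) of DHEA cells with Bcl3 and in 5.44% of those without, and in 12.8% (7.20 to 20.6) and 4.72% of CTRL cells. Relb was seen in 13.1% (8.97 to 18.3) of DHEA cells with Nfkb2 and in 5.40% of those without, and in 12.9% (8.69 to 18.2) and 6.07% of CTRL cells. Rel and Nfkb1 were less tied at this depth, with Rel in 7.46% (6.11 to 9.002) of DHEA cells with Nfkb1 and in 6.31% of those without, and in 8.71% (7.28 to 10.3) and 7.86% of CTRL cells. Outside the Hivep1-led cluster the share of cells with Bcl3 was still 2.34 times as high in DHEA and 2.36 times as high in CTRL where Nfkbia was seen. Cells of 1 library share its preparation and are not replicates.

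UMIs of all members together were spread over most cells, and Nfkbia gave a large part of them. Before thinning it had 21950 of 50794 member UMIs in DHEA and 20696 of 53366 in CTRL. A thinned cell had 1.03 member UMIs on average in DHEA and 1.10 in CTRL. None was seen in 43.4% of DHEA and 40.1% of CTRL cells, and 5 or more in 256 DHEA cells (2.42%) and 220 CTRL cells (2.53%). Of the cells with 5 or more, 18.8% in DHEA and 36.8% in CTRL were Hivep1-led, so most were not in that cluster.

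Across 29 units, each a cluster in 1 library with at least 50 cells, the members fell into pairs of like pattern. Pearson's r of log2(CPM + 10) was 0.91 for Bcl3 and Icam1, 0.90 for Nfkb2 and Relb, 0.89 for Nfkbia and Relb and 0.89 for Nfkb1 and Rel. Without the 2 Hivep1-led units these became 0.63, 0.64, 0.64 and 0.87. Bcl3 and Tnfaip3 had 0.30 with those units and -0.25 without. The units share libraries and differ in depth, so these values describe the data and carry no p.

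Among 9334 genes outside the NF-kB lists, the one whose pattern over the units was most like the mean of the 10 members was Kdm2b (r = 0.95), which encodes a histone demethylase, and it kept 0.86 without the Hivep1-led units. Also near were Hivep1 (0.89), Rara, a retinoic acid receptor (0.80), Mapkapk2 (0.79), Foxp4 (0.79), Ifrd1 (0.78) and Casz1 (0.78). Without those units r was 0.73 for Ifrd1, 0.67 for Mapkapk2, 0.49 for Hivep1, 0.48 for Foxp4, 0.46 for Rara and 0.14 for Casz1. For the canonical subunits near genes were Orai1 (0.91), the pore of the store-operated calcium channel, Kdm2b (0.88), Foxp4, Dnmt3a and Tgfb1 (0.84 each) and Spag9 (0.81), with 0.88 for Orai1 without those units. For the non-canonical subunits they included Kdm2b (0.88), Hivep1 (0.83), Mapkapk2 (0.79), Rara (0.79) and Tfe3 (0.76), which stood at 0.64, 0.23, 0.69, 0.41 and 0.18 in that order without those units.

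The rest of the pathway was read from lists, over all selected cells. A list of 4 other IkB genes and Nkap, which encodes an NF-kB activating protein, had 3 genes higher and 2 lower in DHEA, with a median of 0.00 that is the value of Nkap. Of the IkB genes, Nfkbie stood at 18.1 CPM in DHEA and 15.9 CPM in CTRL (0.19), Nfkbib at 45.4 CPM in DHEA and 44.6 CPM in CTRL (0.02), Nfkbid at 42.3 CPM in DHEA and 47.2 CPM in CTRL (-0.16), and Nfkbiz, which encodes a nuclear IkB protein, at 88.1 CPM in DHEA and 104 CPM in CTRL (-0.24). Of 12 genes for kinases and their binding partners 9 were lower and 3 higher, with a median of -0.13. Furthest from 0 lay Tab1 (-0.37) and Tab2 (-0.24), which encode partners of the kinase TAK1, Map3k7, which encodes TAK1 itself (-0.28), and the kinase gene Tbk1 (-0.30). Map3k14, which encodes NIK, stood at 49.8 CPM in DHEA and 51.6 CPM in CTRL (-0.05, -0.13 to 0.03). Map3k14 falls outside the rule for named genes and was picked as the kinase that defines the non-canonical pathway.

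Of 24 measured genes for adaptors and ubiquitin enzymes 16 were lower and 8 higher, with a median of -0.09. Zc3h12a, which encodes the RNase Regnase-1, had the lowest ratio of any of them, 25.7 CPM in DHEA and 37.9 CPM in CTRL (-0.56, -0.66 to -0.46). Rnf31, a subunit of the linear ubiquitin ligase (-0.33), Tnip1, a partner of A20 (-0.26), and Tank (-0.24) came next. No gene of the IkB, kinase and adaptor lists was 1.5-fold apart, against 3.24% of all measured genes. The median ratio of all measured genes was -0.00.

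Most measured receptors, ligands and other targets were higher in DHEA, unlike the member targets Tnfaip3 and Birc3. Of 8 measured receptors (16 listed) 7 were higher, with a median of 0.15, and Tnfrsf1a, the main receptor for tumour necrosis factor, stood at 17.2 CPM in DHEA and 13.7 CPM in CTRL (0.33), Tnfrsf25 at 0.31, Cd27 at 0.25 and Tnfrsf18 at 0.20. Of 7 measured ligands (13 listed) 5 were higher, 2 of them by 1.5-fold or more, against 1.81% of all measured genes: Fasl at 4.89 CPM in DHEA and 1.91 CPM in CTRL (1.36, 1.01 to 1.72) and Tnf at 39.4 CPM in DHEA and 25.2 CPM in CTRL (0.65, 0.54 to 0.75). Tnfsf14 stood at 0.47 and Tnfsf8 at 0.32. Of the 4 named receptors 3, and of the 4 named ligands 3, are in the shortest span group, whose median was 0.11, while Tbk1, Map3k7 and Tab2 are in span group 4, whose median was -0.06. The part of gene span in this contrast was not tested. Of 29 other measured targets (38 listed) 21 were higher and 8 lower, with a median of 0.19, and 6 were higher and 0 lower by 1.5-fold or more, against 1.81% and 1.44% of all measured genes. The chemokines Ccl4 (71.2 CPM in DHEA and 25.2 CPM in CTRL, 1.495) and Ccl3 (1.18), Stx11, which granule release needs (0.98), and the survival gene Bcl2a1d (0.77) lay furthest from 0. Several of these genes are also made by effector cells, whose marker list summed to 511 CPM in DHEA and 197 CPM in CTRL over the same cells. Within naive-like cells 19 of 24 measured targets were higher, with a median of 0.21 beside -0.04 for all genes, and within Hivep1-led cells 13 of 18, with 0.21 beside -0.01. In memory-like cells 18 of 23 were higher (median 0.25), in innate-like cells 10 of 14 (0.16), in early-activated-like cells 7 of 8 (0.25), in Hdac9-led cells 10 of 11 (0.13) and in Dapl1-led cells 12 of 20 (0.12). This was not so in every state: 9 of 16 were higher in effector-like cells (0.05), 11 of 16 in interferon-responding-like cells (0.02), 8 of 17 in Gm30948-led cells (-0.04) and 2 of 6 in Hspa1a-led cells (-0.20), and 1 target was measured in proliferating-like cells. States also differed in content between the libraries, with memory genes at 1309 CPM in DHEA and 973 CPM in CTRL in naive-like cells. Immediate early genes that cell handling can induce were also mostly higher in naive-like cells (19 of 26 measured, median 0.09) and memory-like cells (19 of 23, 0.20). Over all selected cells 14 of 29 of them were higher (median -0.00). The median of all measured genes lay between -0.04 and 0.05 in the 12 states. The part of cell content and of cell handling in the levels of the targets was not tested.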

How the data were processed

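The authors deposited raw UMI counts per gene and barcode; per the file headers these came from Cell Ranger 8.0.1. Seurat 4.3.0 and the build mm39 appear in the submitters' processing notes with no role stated. Which filter on barcodes was used is not stated. The members, gene lists and comparisons were chosen with earlier results of these data known. Counts were summed over cells and scaled to CPM (UMIs per 1000000), with exact Poisson, binomial (Clopper-Pearson) and count-split 95% intervals. A gene was measured with at least 200 UMIs over both libraries, and 1.5-fold was a rule of size.

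For states, counts were scaled to 10000 per cell and logged, and 2000 variable genes without those of 10 NF-kB lists were centred within each library. Leiden clustering (resolution 1.0) of a graph of 15 neighbours in 30 principal components gave 15 clusters, named after their leading genes were seen. Scrublet called 0 doublets in either library, so it had not worked and none were removed. An alternative left out the 916 DHEA and 608 CTRL cells with the highest scores. The log2 ratios and intervals were tested on simulated counts. Tools were Python 3.11.15, scanpy 1.11.5, numpy 2.4.6, scipy 1.17.1, scikit-learn 1.9.0, leidenalg 0.10.2, with TMM factors alone from edgeR 4.0.16 in R 4.3.3.

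Named genes were the members, in each list up to 4 genes furthest from a ratio of 0, the 8 genes most like all members and the 6 most like each kind of subunit. Genes that lead a cluster, Map3k14, Ighm, Cd79a, Lyz2, S100a8 and Hbb-bs fall outside this rule. Not every gene the rule names is reported here. Another 15 settings were tried, and 3 more chosen after the data were seen (span correction, cells with at least 3000 UMIs, Hivep1-led cluster left out). Gene spans came from GENCODE vM21, which may differ from the annotation used for counting, and promoter coordinates are GRCm38.p6 positions, not those of the files.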

Additional observations from a re-analysis of the deposited data

How the results depend on the processing

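Of 1218 values recomputed under other settings, 1142 stayed within the 95% counting interval, or the 1.5-fold margin for counts, of the value given, 75 moved beyond it and 1 reversed. The exception was Birc3 in effector-like cells, 0.19 when cells were thinned to 1000 UMIs. Over all selected cells the canonical ratio lay between -0.30 and -0.24 and the subunit difference between 0.11 and 0.19 in 12 settings each. The span correction was not among these 12, so the ranges do not cover gene span. With that correction Nfkb1 stood at -0.12, Rel at -0.26 and Rela at -0.21, beside -0.12 for Relb and -0.28 for Nfkb2. On that scale the single genes of the 2 kinds of subunit were not set apart. Of all values 54 changed sign. Over all selected cells these were Nfkbia (-0.05, span correction) and Rela (0.01, thinned). Others include Nfkb2 in naive-like cells (-0.18, all-gene clustering). Those in the few Hivep1-led cells left without the NF-kB-led cluster include Bcl3 (-0.49), Nfkbia (-0.60), Icam1 (-0.83) and Rela (0.61).

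Thinning moved the most values: genes at least 1.5-fold higher and lower numbered 100 and 63, the canonical ratio was -0.52 in memory-like, -0.49 in effector-like, -0.53 in interferon-responding-like, 0.20 in proliferating-like, 0.039 in Hdac9-led and -0.85 in Hspa1a-led cells, the non-canonical ratio -0.76 in interferon-responding-like and -0.37 in innate-like cells, and the non-canonical against canonical difference 0.28 in memory-like, -0.38 in innate-like, 0.24 in Gm30948-led, -0.25 in Hdac9-led and 1.68 in Hspa1a-led cells. Thinned Hspa1a-led cells rest on little: Relb was seen in 1 DHEA and 3 CTRL cells and Nfkb2 in 4 DHEA and 1 CTRL cells. The canonical ratio was -0.075 in the few Hivep1-led cells left without the NF-kB-led cluster of the all-gene clustering. It was -0.32 in Dapl1-led cells at resolution 0.5 and 0.054 in Gm30948-led cells with genes scaled over both libraries. In naive-like cells of the all-gene clustering the non-canonical ratio was -0.060 and the difference 0.17. The non-canonical ratio over all cells was -0.069 without the Hivep1-led cluster, and the members' median -0.12 as a mean over cells. With at least 1000 UMIs per gene the counts of genes were 72 and 37, and with no minimum 1358 and 1929, where fewer and more genes were tested. Otherwise the cause was not tested. No paired analysis was possible because each group has 1 library.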

Other observations

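The barcodes left outside the selection (1429 in DHEA and 778 in CTRL), which lacked a CD8 or CD3 UMI or failed a quality limit, held the members too. Nfkb1 stood there at 214 CPM in DHEA and 252 CPM in CTRL (-0.23, -0.39 to -0.07), Nfkbia at 464 CPM in DHEA and 453 CPM in CTRL (0.03, -0.08 to 0.15), and Bcl3 at 20.4 CPM from 60 UMIs in DHEA and 10.0 CPM from 24 UMIs in CTRL (1.03, 0.32 to 1.77). Icam1 stood at 77.5 CPM in DHEA and 84.6 CPM in CTRL (-0.13, -0.41 to 0.15) and Nfkb2 at 33.6 CPM in DHEA and 29.2 CPM in CTRL (0.21, -0.25 to 0.67), both on the other side of 0 from the selected cells, with intervals that held 0. The other 5 members had ratios between -0.34 and -0.09. The cell types in these barcodes were not analysed here.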
